A study of Mus musculus with 16 samples.

Results

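Transcript levels in spleen CD4+ T cells of NEMO knockout mice were compared with those of IKK2 knockout mice, both without nephritis. The comparison took the 5 of 16 arrays in the series whose titles name a knockout and no nephritis, namely 2 NEMO knockout arrays and 3 IKK2 knockout arrays with 1 sample each. The NEMO knockout mice carried a Cre recombinase driven by the CD4 promoter together with a floxed Ikbkg gene, written NEMOfl/f in the label. The IKK2 knockout mice carried the same Cre and a floxed Ikbkb gene (IKK2fl/fl). All were males of 8 to 10 weeks that were labelled as free of inflammation. Another 3 arrays, from untreated males of that age labelled CD4cre with no floxed gene, are given as a reference level. Cre was thus present in every group, and CD4-driven Cre is also active in precursors of CD8 T cells. A second set of 2 NEMO and 3 IKK2 knockout arrays, taken on day 10 after injection of sheep nephrotoxic serum, is used at the end. PCR on sorted spleen cells was used to assess deletion in these crosses, per the labels, which do not say whether a sample came from 1 mouse or from several.

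The IkB kinase (IKK) complex holds the catalytic subunits IKK1 and IKK2, encoded by Chuk and Ikbkb, and the regulatory subunit NEMO, encoded by Ikbkg. In the canonical NF-kB pathway the complex marks IkB proteins for degradation, which frees dimers of Rela, Rel and Nfkb1 to enter the nucleus. NEMO is required for that step, while IKK1 can take over part of the work of IKK2. In the noncanonical pathway the kinase NIK (Map3k14) activates IKK1 without NEMO, and the precursor encoded by Nfkb2 is processed and paired with Relb. In T cells these pathways act downstream of the antigen receptor and of receptors of the tumour necrosis factor family, and they bear on survival, activation and the making of regulatory and memory cells. The comparison asks how T cells with a deleted regulatory subunit differ from T cells with a deleted catalytic subunit.

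A level is the log2 of an array's background-subtracted intensity minus that array's 75th percentile over probes, so 0 is that percentile and a difference of 1 is a 2-fold change. Differences are NEMO minus IKK2 with the standard error (SE) of the linear model, both on the log2 scale also where a fold is given, n = 2 against 3 arrays, and a gene was called at a Benjamini-Hochberg adjusted p under 0.05. Both NEMO arrays lay on a slide of their own (slide 3), scanned on another occasion. IKK2 replicates 1 and 2 lay on slide 1 and IKK2 replicate 3 on slide 2 with the Cre controls. Slide and genotype therefore cannot be told apart in this comparison. Negative control spots gave a mean net signal between 40.5 and 46.0 on the arrays of slide 1. The range was 19.5 to 22.4 for slide 2 and 16.4 to 17.7 for slide 3. Across genes the NEMO arrays correlated at 0.993 with each other and at 0.960 to 0.977 with the IKK2 arrays, which correlated at 0.984 to 0.989 among themselves. On the first principal component of the 8 untreated arrays, with 56.2% of the variance, the NEMO arrays stood at 79.6 and 75.8. The IKK2 arrays stood at -10.3, -6.98 and 12.8 there, and the Cre arrays between -54.5 and -46.2, so that IKK2 replicate 3 was the IKK2 array nearest to NEMO. The labelled cell type carried its markers on all 5 arrays. Cd3e, a chain of the T cell receptor complex, read 6.93 and 6.66 on the NEMO arrays and 6.82, 7.0 and 6.99 on the IKK2 arrays. Cd4 read 5.96 and 5.97 against 6.19, 6.03 and 5.96, and the groups overlapped for both genes.

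Of 14675 genes tested, 5173 (35.3%) were called, 2260 higher (15.4%) and 2913 lower (19.9%) in NEMO knockout T cells. The arrays of the genotypes did not overlap for 8639 genes (58.9%). Larger changes leaned the other way, since a change of 2-fold or more was found for 1108 higher and 653 lower called genes, and of 4-fold or more for 372 and 114. The median difference of all genes was -0.084 and the median SE 0.15. Higher genes made up 43.7% of the calls. That share was 61.0% when arrays were centred on T cell identity genes, which moved the median of all genes by 0.13, and 49.1%, 50.5% and 51.7% under quantile normalization, with the authors' deposited log2 matrix and with only the 5 arrays fitted. Without NEMO replicate 1 the count was 3177, against IKK2 replicate 3 alone it was 2845, and in a fit of only the 5 arrays it was 3007. A fit of only the 5 arrays leaves each difference unchanged, so no sign could turn there. Under quantile normalization 5163 of the 5173 genes kept their sign, and with the authors' deposited log2 matrix 5162 did. Without NEMO replicate 1, against IKK2 replicate 3 alone and under centring on T cell identity genes all 5173 genes kept their sign. For 5157 of them the arrays of the genotypes do not overlap, so that leaving arrays out could not turn it. IKK2 replicate 3 was the IKK2 array nearest to the NEMO mean for 1345 of the 2260 higher genes (59.5%) and 1840 of the 2913 lower genes (63.2%).

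The targeted genes were read first. Ikbkg read -0.94 and -0.74 on the NEMO arrays, -0.0065, -0.0013 and -0.064 on the IKK2 arrays and -0.70 ± 0.17 (SD, n = 3) on Cre arrays. It was lower in NEMO (difference -0.81, SE 0.11, adjusted p = 0.000146), and a second, weaker probe gave a difference of -0.51. The NEMO arrays lay below the IKK2 arrays on both probes, with an exact permutation p of 0.1 each (two-sided), the smallest that 2 against 3 arrays allow. The NEMO arrays overlapped the range of the Cre arrays, whereas the IKK2 arrays lay above it. Ikbkb read 2.84 and 3.06 on the NEMO and 3.31, 2.88 and 2.99 on the IKK2 arrays, with 3.30 ± 0.0090 (SD, n = 3) on Cre arrays. The groups overlapped, and the difference of -0.11 (adjusted p = 0.529, exact permutation p = 0.7) turned sign when NEMO replicate 1 (0.0042) or IKK2 replicate 1 (0.017) was left out and when arrays were centred on T cell identity genes (0.026). Chuk, whose product IKK1 was not targeted, read 4.07 and 4.09 against 4.03, 4.08 and 3.98 (exact permutation p = 0.3). Whether these probes lie in the deleted exons is not given in the labels or files, and where they do not, their levels say nothing of the deletion.

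Among IKK and canonical NF-kB pathway genes, the inhibitor genes Nfkbia, Tnfaip3, Tnip1 and Tnip2 were higher in NEMO than in IKK2 knockout T cells, as were Map3k7, which encodes the upstream kinase TAK1, and Tab2, while Traf6 and Prkcq were lower beside Ikbkg. Of 27 measured members 6 were higher, 3 lower and 18 did not pass, against 35.3% of all genes called, with a list median of 0.083. Nfkbia, which encodes the inhibitor IkBa that NF-kB itself induces, read 5.89 and 5.90 on the NEMO arrays. It read 5.04, 5.19 and 5.23 on the IKK2 arrays and 5.95 ± 0.017 (SD, n = 3) on the Cre arrays, a difference of 0.74 (SE 0.081, adjusted p = 4.14e-05). Both NEMO arrays lay above all IKK2 arrays and just below the Cre arrays. Tnfaip3, the ubiquitin-editing enzyme A20 that shuts off the pathway, read 3.71 and 3.49 against 2.05, 2.03 and 2.60, with 2.96 ± 0.14 in Cre arrays, and was higher by 1.38 (SE 0.18, adjusted p = 0.000157). Here the NEMO arrays lay above all arrays of both other groups. Tab2, an adaptor of TAK1, was higher by 0.69 (SE 0.15, adjusted p = 0.00421), but did not pass against IKK2 replicate 3 alone, in a fit of only the 5 arrays or without NEMO replicate 1 (adjusted p = 0.079, 0.0879 and 0.0503). Prkcq, the kinase PKC-theta that links the T cell receptor to IKK, read 4.45 and 4.46 against 5.40, 5.08 and 5.04 and was lower (difference -0.72, SE 0.11, adjusted p = 0.000302). Of the subunits, Rela read 6.0 and 5.95 against 6.22, 6.04 and 6.20 (adjusted p = 0.13) and Nfkb1 1.90 and 2.02 against 1.82, 1.43 and 1.81 (adjusted p = 0.118), so neither passed. A second Nfkb1 probe gave a difference of 1.20 against 0.27 on the probe used. Rel was not analysed here.

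In the noncanonical pathway the subunit genes, 3 ligand genes and 2 receptor genes were higher, while NIK, the receptor gene Cd27 and the ligand gene Tnfsf12 were lower. Of 22 members 8 were higher, 3 lower and 11 did not pass (list median 0.11), where 15.4% of all genes were higher and 19.9% lower. Nfkb2 read 2.28 and 2.14 in NEMO, 1.37, 1.12 and 1.47 in IKK2 and 1.72 ± 0.024 (SD, n = 3) in Cre arrays, and was higher by 0.89 (SE 0.14, adjusted p = 0.000554). Relb read 3.15 and 3.11 against 2.36, 2.44 and 2.63 and was higher by 0.66 (SE 0.14, adjusted p = 0.00326), but did not pass against IKK2 replicate 3 alone (adjusted p = 0.0919). For both genes the NEMO arrays lay above all IKK2 arrays. Traf3, the adaptor that keeps NIK low in resting cells, was higher by 0.47 (SE 0.11, adjusted p = 0.00513), but did not pass against IKK2 replicate 3 alone (adjusted p = 0.123). Map3k14 read 3.65 and 3.45 against 4.15, 3.81 and 3.90 and was lower (difference -0.41, SE 0.12, adjusted p = 0.0176). It did not pass against IKK2 replicate 3 alone, in a fit of only the 5 arrays, without NEMO replicate 2 or without IKK2 replicate 1 (adjusted p = 0.107, 0.122, 0.159 and 0.0518). Among the ligands, Tnfsf14 (LIGHT) read 3.75 and 3.86 against 0.95, 0.42 and 2.16, with IKK2 replicate 3 the highest of its group, and was higher by 2.63 (SE 0.48, adjusted p = 0.00126). Tnfsf13b, the B cell survival factor BAFF, was higher by 1.79 (SE 0.15, adjusted p = 8.71e-06) and Tnfsf11, RANK ligand, by 1.51 (SE 0.25, adjusted p = 0.000692). Of the receptors, the tumour necrosis factor receptor gene Tnfrsf1b was higher by 1.38 (SE 0.13, adjusted p = 1.78e-05). Tnfrsf4, the costimulatory receptor OX40, was higher by 0.92 (SE 0.16, adjusted p = 0.0008). Cd27, a costimulatory receptor of naive and central memory cells, went the other way. It read 1.42 and 1.60 on the NEMO arrays and 3.45, 3.36 and 3.04 on the IKK2 arrays, 3.43-fold lower (SE 0.12, adjusted p = 3.26e-06).

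Genes known as NF-kB targets were more often higher than lower in NEMO knockout T cells. Of 29 measured, 13 were higher, 2 lower and 14 did not pass (51.7% called against 35.3% of all genes), with a list median of 0.47. The list mean relative to the Cre arrays was 0.74 and 0.66 on the NEMO and -0.15, -0.26 and 0.11 on the IKK2 arrays. Cytokine genes led the list. Il2, the T cell growth factor, read 0.68 and 0.57 in NEMO, -3.40, -3.29 and -2.75 in IKK2 and -1.48 ± 0.32 (SD, n = 3) in Cre arrays, a difference of 3.77 or 13.7-fold (SE 0.32, adjusted p = 9.27e-06). Csf2, which encodes GM-CSF, read -1.33 and -1.51 against -4.78, -4.74 and -3.69 and was higher by 2.98 (SE 0.36, adjusted p = 7.16e-05), with its probe well above background on 1 of 3 IKK2 arrays. The NEMO arrays lay above all IKK2 and Cre arrays for both genes. Il2ra, the high-affinity chain of the IL-2 receptor, was higher by 2.12 (SE 0.29, adjusted p = 0.00017) and Gadd45b by 1.33 (SE 0.19, adjusted p = 0.000269). The inflammatory cytokine Tnf (0.88, SE 0.27, adjusted p = 0.0263) and the chemokine Ccl4 (2.14, SE 0.76, adjusted p = 0.046) passed as well. Tnf did not pass without NEMO replicate 1, without NEMO replicate 2, without IKK2 replicate 1 or without IKK2 replicate 2 (adjusted p = 0.0955, 0.122, 0.0591 and 0.0591), nor under 2 other settings (adjusted p between 0.0601 and 0.195). Ccl4 did not pass without NEMO replicate 1, without NEMO replicate 2, without IKK2 replicate 1 or without IKK2 replicate 2 (adjusted p = 0.195, 0.121, 0.11 and 0.106), nor under 5 other settings (adjusted p between 0.0554 and 0.383). Icam1, an adhesion molecule, was higher by 1.13 (SE 0.31, adjusted p = 0.0135), but did not pass against IKK2 replicate 3 alone, in a fit of only the 5 arrays or without NEMO replicate 1 (adjusted p = 0.222, 0.0953 and 0.106). Myc, the growth regulator, was lower (difference -1.12, SE 0.18, adjusted p = 0.000477), at 0.76 and 0.64 against 1.69, 2.03 and 1.74.

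The promoters of 3 of these genes and of a mitotic gene described further on are printed to show the letters that NF-kB and cell cycle regulators are known to bind. Each window runs from 250 bases before to 50 bases after the gene's start in RefSeq (GRCm38.p6), 5′ to 3′ on the gene's strand. Capitals in the first 3 mark each match to the kB site in a loose form, which is GGGA, any 4 bases and then CC, or its reverse complement. In Cdk1 they mark TTTGAA, the core of the cell cycle homology region, and CCAAT, on either strand, with no overlap between matches.
Nfkbia (chr12:55492598-55492897, minus strand): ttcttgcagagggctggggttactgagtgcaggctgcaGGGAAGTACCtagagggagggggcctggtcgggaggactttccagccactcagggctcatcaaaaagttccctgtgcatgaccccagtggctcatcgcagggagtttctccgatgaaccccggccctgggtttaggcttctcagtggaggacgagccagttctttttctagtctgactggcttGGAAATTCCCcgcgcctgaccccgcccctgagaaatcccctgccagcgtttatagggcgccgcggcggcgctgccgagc
Nfkb2 (chr19:46304487-46304786, plus strand): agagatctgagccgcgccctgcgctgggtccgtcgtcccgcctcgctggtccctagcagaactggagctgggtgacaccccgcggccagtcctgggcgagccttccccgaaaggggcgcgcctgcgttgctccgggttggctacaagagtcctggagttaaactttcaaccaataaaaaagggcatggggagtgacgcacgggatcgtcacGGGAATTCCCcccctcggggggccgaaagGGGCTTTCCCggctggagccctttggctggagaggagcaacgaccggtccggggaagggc
Tnfaip3 (chr10:19015361-19015660, minus strand): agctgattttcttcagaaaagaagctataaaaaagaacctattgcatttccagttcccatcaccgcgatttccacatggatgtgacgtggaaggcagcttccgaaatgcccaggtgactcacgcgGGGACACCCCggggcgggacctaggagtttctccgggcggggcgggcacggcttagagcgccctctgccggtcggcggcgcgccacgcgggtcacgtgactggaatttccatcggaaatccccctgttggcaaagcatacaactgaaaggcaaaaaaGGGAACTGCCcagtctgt
Cdk1 (chr10:69352863-69353162, minus strand): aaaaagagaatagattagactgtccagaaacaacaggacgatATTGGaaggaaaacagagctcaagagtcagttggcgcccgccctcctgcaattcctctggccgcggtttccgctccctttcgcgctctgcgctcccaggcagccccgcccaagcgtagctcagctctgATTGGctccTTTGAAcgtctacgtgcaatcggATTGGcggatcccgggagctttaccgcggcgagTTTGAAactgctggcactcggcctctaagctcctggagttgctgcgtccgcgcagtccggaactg
Of the NF-kB target genes, 25 of 30 had a window in the table, and 14 of these (56.0%) held a match to this kB form, compared with 20.5% of all 27025 windows. Nfkbia, Nfkb2 and Tnfaip3 held 2 matches each. The Tnfaip3 gene has 2 windows in the table and Nfkb2 has 3, of which the first was taken. A match is a description of letters and not a measured site.

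**Figure D1:**
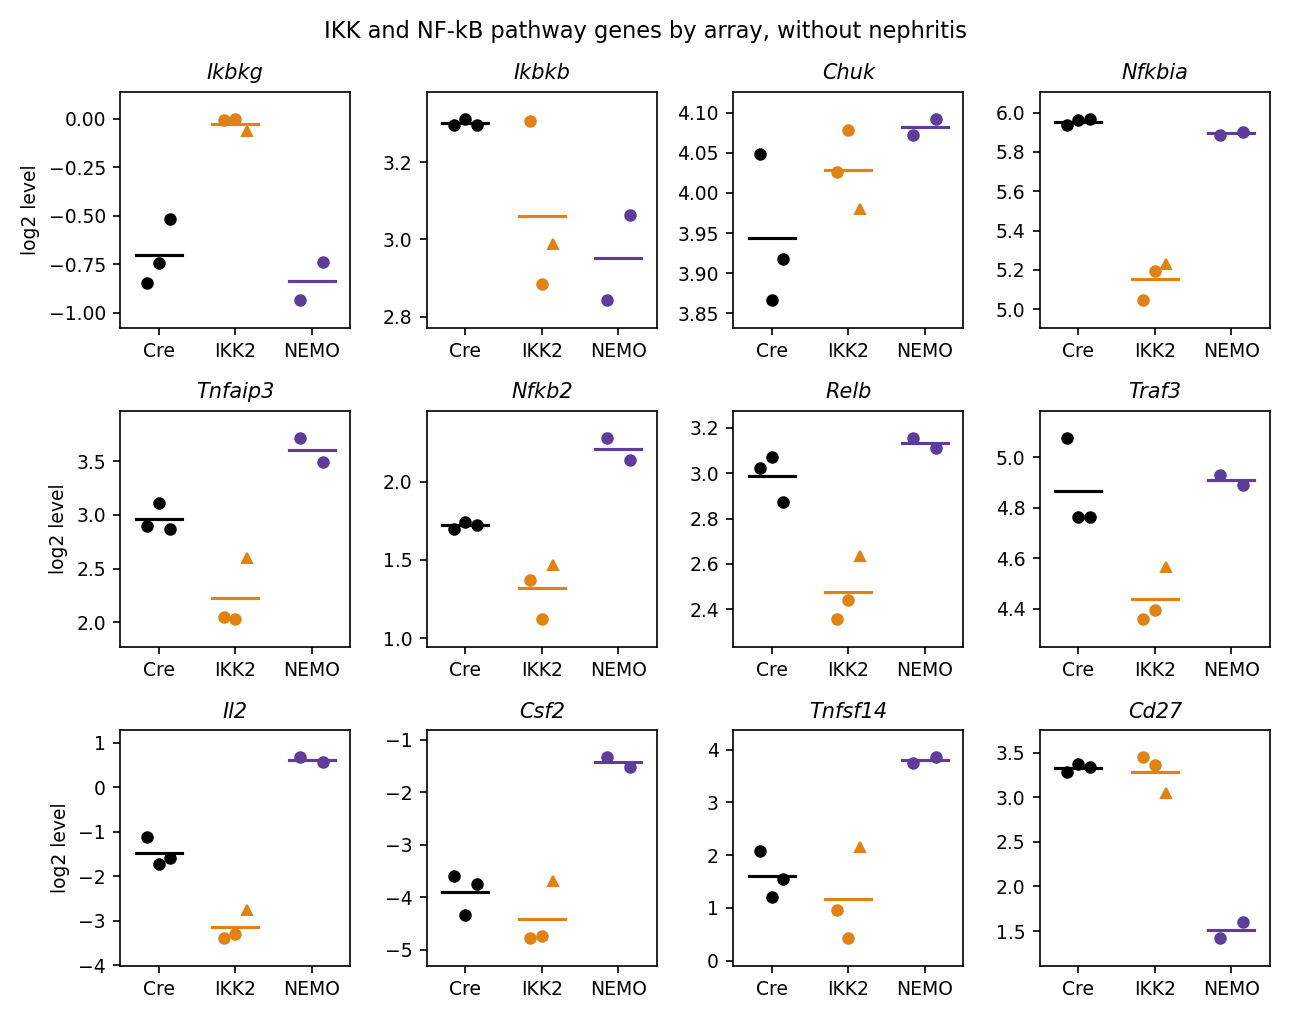
Log2 level (array intensity relative to the 75th percentile) of 12 IKK and NF-kB pathway genes on each untreated array, with 1 point per array, a line at the group mean and IKK2 replicate 3 as a triangle. Nfkbia read 5.89 and 5.90 on the NEMO arrays, near the Cre mean, and the IKK2 arrays lay lower, while Cd27 was low on both NEMO arrays only.

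Genes of naive and central T cells were lower in NEMO than in IKK2 knockout T cells almost throughout. Of 17 members 15 were lower, 1 was higher and 1 did not pass, where 19.9% of all genes were lower, and the list median was -1.72. Ccr7, the chemokine receptor for entry into lymphoid tissue, read 5.52 and 5.55 on the NEMO arrays, 7.93, 7.82 and 7.45 on the IKK2 arrays and 7.73 ± 0.13 (SD, n = 3) on Cre arrays, 4.59-fold lower in NEMO (difference -2.20, SE 0.15, adjusted p = 3.26e-06). The IKK2 arrays lay near the Cre arrays and the NEMO arrays stood apart from both groups. Dapl1 showed the widest gap of the list, at 1.06 and 1.10 against 6.04, 5.66 and 4.96 (difference -4.47, SE 0.33, adjusted p = 4.55e-06). Igfbp4 was lower (difference -2.72, SE 0.20, adjusted p = 4.59e-06), Actn1 (difference -2.17, SE 0.19, adjusted p = 9.71e-06) and the survival gene Bcl2 (difference -1.47, SE 0.13, adjusted p = 1.14e-05). Lef1, a transcription factor of naive cells, was lower (difference -1.72, SE 0.16, adjusted p = 1.37e-05), as was Bach2, which restrains effector genes (-1.77, SE 0.12, adjusted p = 3.26e-06). Il7r, the receptor for the survival cytokine IL-7, was the exception and read 5.44 and 5.18 against 4.47, 4.09 and 4.35, higher by 1.01 (SE 0.15, adjusted p = 0.000385). Its Cre level was 5.58 ± 0.16 (SD, n = 3), so the IKK2 arrays were the lowest of the 3 groups. In these bulk samples, fewer cells of a type and less RNA per cell cannot be told apart.

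Genes of antigen-experienced T cells were higher. Of 24 members 22 were higher, none was lower and 2 did not pass, where 15.4% of all genes were higher, and the list median was 1.87. The list mean relative to Cre arrays was 2.22 and 2.13 on the NEMO arrays and 0.092, -0.10 and 0.69 on IKK2 replicates 1 to 3, so replicate 3 was the highest of the IKK2 arrays. S100a4, a calcium-binding protein of memory and effector cells, read 8.37 and 8.20 against 5.41, 5.19 and 6.43 and was 6.1-fold higher (SE 0.34, adjusted p = 0.000131). Ccr2, a chemokine receptor for entry into inflamed tissue, read 4.25 and 4.13 against 0.46, 0.045 and 1.71, a difference of 3.45 (SE 0.39, adjusted p = 5.31e-05). The groups did not overlap for either gene. Maf, a transcription factor of effector helper cells, was higher by 3.14 (SE 0.44, adjusted p = 0.000216), Lgals3 by 3.04 (SE 0.29, adjusted p = 1.65e-05) and Anxa1 by 2.95 (SE 0.25, adjusted p = 8.72e-06). Cd44, the adhesion receptor by which memory cells are usually sorted, read 4.06 and 3.92 against 2.12, 2.19 and 2.64, with 2.06 ± 0.26 (SD, n = 3) on Cre arrays, and was higher by 1.68 (SE 0.21, adjusted p = 0.000116). Prdm1, the factor Blimp-1, was higher by 1.79 (SE 0.24, adjusted p = 0.000149) and the costimulatory receptor Icos by 1.39 (SE 0.15, adjusted p = 3.61e-05). The integrin gene Itgb1 was higher by 2.03 (SE 0.21, adjusted p = 2.78e-05) and the scaffold gene Ahnak by 2.45 (SE 0.40, adjusted p = 0.000631). Cxcr6 and Tnfrsf9 were the members that did not pass.

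Th17 genes held the highest list median, 3.45, of the 32 lists. Of 12 measured members 11 were higher, none was lower and Il21 did not pass, where 15.4% of all genes were higher. Ccr6, the homing receptor of Th17 cells, read 5.72 and 5.59 on the NEMO arrays. It read 1.70, 1.46 and 3.16 on the IKK2 arrays and 1.45 ± 0.20 (SD, n = 3) on the Cre arrays, a difference of 3.55 or 11.7-fold (SE 0.54, adjusted p = 0.000396). IKK2 replicate 3 lay above the other IKK2 arrays and still well below both NEMO arrays. Il1r1, the receptor for IL-1, was higher by 3.68 (SE 0.65, adjusted p = 0.00102) and Il17re, a receptor subunit for IL-17C, by 3.71 (SE 0.62, adjusted p = 0.000698). Il23r was higher by 3.99 (SE 0.89, adjusted p = 0.00448) but did not pass against IKK2 replicate 3 alone (adjusted p = 0.147). Rora, a nuclear receptor that favours the Th17 state, was higher by 3.17 (SE 0.42, adjusted p = 0.000153). The probe for the cytokine Il17a was not well above background on any IKK2 array, and the gene was at least 6.57-fold higher in NEMO (SE 0.61, adjusted p = 0.000297). That bound sets the NEMO mean against the lowest signal that counts as above background on the IKK2 arrays. The list mean relative to Cre was 4.25 and 4.40 on the NEMO and 0.76, 0.84 and 1.96 on the IKK2 arrays.

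Th1 genes were higher as well. Of 18 members 14 were higher, none was lower and 4 did not pass, where 15.4% of all genes were higher. The list median was 2.11, and 1.26 against IKK2 replicate 3 alone. Ifng, the cytokine that defines Th1 cells, read 4.05 and 4.28 against 1.58, 0.87 and 2.92 and was higher by 2.37 (SE 0.53, adjusted p = 0.0046), but did not pass against IKK2 replicate 3 alone or in a fit of only the 5 arrays (adjusted p = 0.138 and 0.0535). Tbx21, which encodes the Th1 master factor T-bet, read 4.48 and 4.45 against 2.03, 1.29 and 3.17 and was higher by 2.30 (SE 0.49, adjusted p = 0.00323), but did not pass against IKK2 replicate 3 alone (adjusted p = 0.096). For both genes the groups did not overlap, and IKK2 replicate 3 lay nearest to NEMO. The IL-18 receptor genes Il18rap and Il18r1 were higher by 2.89 (SE 0.51, adjusted p = 0.00102) and 2.39 (SE 0.32, adjusted p = 0.000153). Il12rb1, a shared subunit of the receptors for IL-12 and IL-23, was higher by 2.47 (SE 0.41, adjusted p = 0.000646). Cxcr3, a chemokine receptor of Th1 cells, was higher by 2.41 (SE 0.44, adjusted p = 0.00121), at 6.46 and 6.21 against 3.82, 3.20 and 4.77. The cytotoxic protease gene Gzmb was higher by 2.08 (SE 0.30, adjusted p = 0.000259) and the death ligand gene Fasl by 1.21 (SE 0.11, adjusted p = 1.32e-05). The chemokine gene Ccl5 was higher by 2.20 (SE 0.63, adjusted p = 0.0169), but did not pass without NEMO replicate 1, without NEMO replicate 2 or without IKK2 replicate 2 (adjusted p = 0.106, 0.0597 and 0.0589), nor under 2 other settings (adjusted p between 0.0709 and 0.36).

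Of 12 Th2 genes 8 were higher, 2 (Il4ra and Stat6) were lower, and Il5 and Areg did not pass, where 15.4% of all genes were higher. The list median of 1.39 fell to 0.21 with normexp background correction. Gata3, the Th2 master factor, read 4.67 and 4.56 in NEMO, 3.50, 3.63 and 3.79 in IKK2 and 3.87 ± 0.020 (SD, n = 3) in Cre arrays, and was higher by 0.97 (SE 0.091, adjusted p = 1.56e-05). Il1rl1, the receptor for IL-33, was higher by 1.99 (SE 0.23, adjusted p = 6.19e-05). Ccr4, a skin and lung homing receptor of Th2 and regulatory cells, was higher by 3.19 (SE 0.35, adjusted p = 3.88e-05). The cytokine Il4 took another order. It read -1.45 and -1.28 on the NEMO and -3.31, -3.56 and -2.97 on the IKK2 arrays, a difference of 1.91 (SE 0.38, adjusted p = 0.00213) that did not pass against IKK2 replicate 3 alone (adjusted p = 0.0647). On Cre arrays it read 0.0088 ± 0.17 (SD, n = 3), above both knockouts. Il13 was not well above background on any IKK2 array and it was at least 1.04-fold higher (adjusted p = 0.0148). It did not pass with normexp background correction or without NEMO replicate 2 (adjusted p = 0.647 and 0.16). The receptor chain Il4ra, through which T cells sense IL-4, was lower (difference -2.15, SE 0.17, adjusted p = 6.3e-06), at 0.32 and 0.65 against 2.80, 2.76 and 2.35. A second probe gave a smaller difference of -0.79.

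Regulatory T cell genes were mostly higher. Of 18 members 13 were higher, 2 lower and 3 did not pass, where 15.4% of all genes were higher and 19.9% lower. The list median was 1.15. The list mean relative to Cre arrays was 0.69 and 0.68 on the NEMO and -0.41, -0.46 and -0.077 on the IKK2 arrays. Foxp3, the factor that defines regulatory T cells, read 0.67 and 0.46 in NEMO, -0.61, -0.99 and -0.25 in IKK2 and 0.42 ± 0.20 (SD, n = 3) in Cre arrays. It was higher in NEMO by 1.18 (SE 0.35, adjusted p = 0.0217), but did not pass without NEMO replicate 1, without NEMO replicate 2 or without IKK2 replicate 2 (adjusted p = 0.127, 0.0691 and 0.0717), nor under 2 other settings (adjusted p between 0.0518 and 0.279). Il2ra read 1.79 and 1.5 against -0.78, -0.67 and 0.018, with 0.92 ± 0.18 on Cre arrays, and the groups did not overlap. Ikzf2, a factor of thymus-derived regulatory cells, was higher by 1.82 (SE 0.37, adjusted p = 0.00233), but did not pass against IKK2 replicate 3 alone (adjusted p = 0.0829). The coreceptor Nrp1 was higher by 1.82 (SE 0.35, adjusted p = 0.00189) but did not pass in a fit of only the 5 arrays (adjusted p = 0.0532). Gpr83, a surface receptor, was lower (difference -1.5, SE 0.37, adjusted p = 0.00761), with its probe well above background on 1 of 2 NEMO arrays, and did not pass against IKK2 replicate 3 alone, under quantile normalization, in the authors' deposited log2 matrix or without NEMO replicate 1 (adjusted p = 0.0882, 0.0673, 0.152 and 0.0568).

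Inhibitory receptor genes were higher where they passed, and follicular helper genes were split. Of 12 inhibitory receptor genes 6 were higher, none was lower and 6 did not pass (list median 1.19, and 0.70 against IKK2 replicate 3 alone). Over all genes 15.4% were higher and 19.9% lower. Tigit was higher by 2.44 (SE 0.51, adjusted p = 0.00302), Klrg1 by 1.80 (SE 0.42, adjusted p = 0.00545) and Pdcd1, which encodes PD-1, by 1.28 (SE 0.34, adjusted p = 0.0108). Tigit did not pass against IKK2 replicate 3 alone (adjusted p = 0.116). Klrg1 did not pass against IKK2 replicate 3 alone or in a fit of only the 5 arrays (adjusted p = 0.138 and 0.0507). Pdcd1 did not pass against IKK2 replicate 3 alone or without NEMO replicate 2 (adjusted p = 0.131 and 0.072). Ctla4, which blocks costimulation, was higher by 1.22 (SE 0.30, adjusted p = 0.00766), but did not pass against IKK2 replicate 3 alone or without NEMO replicate 2 (adjusted p = 0.222 and 0.0757). Of 12 follicular helper genes 3 were higher, 3 lower and 6 did not pass (list median 0.076). Izumo1r, the folate receptor FR4 found on regulatory and anergic cells, was lower (difference -1.22, SE 0.13, adjusted p = 3.37e-05). Ascl2 was higher by 2.0 (SE 0.49, adjusted p = 0.00738), but did not pass against IKK2 replicate 3 alone or without NEMO replicate 2 (adjusted p = 0.0831 and 0.0855). Bcl6, the follicular helper master factor, was lower (difference -0.35, SE 0.095, adjusted p = 0.0128), but did not pass without NEMO replicate 1 or without NEMO replicate 2 (adjusted p = 0.092 and 0.0505), nor under 4 other settings (adjusted p between 0.0533 and 0.146). Slamf6 was lower (difference -0.38, SE 0.10, adjusted p = 0.0125), while a second probe gave 0.16, and it did not pass without NEMO replicate 1 (adjusted p = 0.129), nor under 4 other settings (adjusted p between 0.0645 and 0.491).

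Lists of innate-like, gamma-delta and cytotoxic lymphocytes also held higher genes, beside 15.4% of all genes higher and 19.9% lower. Of 12 innate-like T cell genes 6 were higher, 1 lower and 5 did not pass (list median 1.06). Zbtb16, whose product PLZF defines natural killer T cells, did not pass and read -2.19 and -2.24 against -2.73, -2.64 and -2.15, below the 0.23 ± 0.26 (SD, n = 3) of Cre arrays. Il2rb, the receptor chain for IL-2 and IL-15, was higher by 2.02 (SE 0.31, adjusted p = 0.000404), at 4.95 and 5.03 against 2.79, 2.63 and 3.50. The gamma-delta T cell and innate lymphoid list had 6 of 11 genes measured, of which 3 were higher and 2 lower. Cd163l1, the receptor SCART1 known from IL-17-producing gamma-delta T cells, read 3.73 and 3.66 against -0.53, -0.70 and 1.18 (difference 3.71, SE 0.55, adjusted p = 0.000329). Tmem176a and Tmem176b, a pair of related membrane protein genes, were higher by 2.75 (SE 0.38, adjusted p = 0.0002) and 2.60 (SE 0.41, adjusted p = 0.000485). The IKK2 arrays lay above the Cre means of all 3, at -1.53 ± 0.28, -1.65 ± 0.061 and 1.37 ± 0.31 (SD, n = 3). The gamma-delta receptor constant genes were not analysed here, so the part of such cells was not tested. Sox13, another gamma-delta factor, was lower (difference -0.39, SE 0.13, adjusted p = 0.0284), but did not pass without NEMO replicate 1, without NEMO replicate 2 or without IKK2 replicate 1 (adjusted p = 0.105, 0.127 and 0.0837), nor under 4 other settings (adjusted p between 0.0642 and 0.165). Among 16 CD8 and NK cell genes 7 were higher, 2 lower and 7 did not pass (list median 0.62). The granule protease gene Ctsw was higher by 1.5 (SE 0.21, adjusted p = 0.000211). Cd8b1, a chain of the CD8 coreceptor, was lower (difference -1.49, SE 0.18, adjusted p = 8.41e-05), at -0.44 and -0.78 against 0.96, 1.03 and 0.66. The summed linear level of this list was 101 and 77.7 on the NEMO, 70.7, 49.9 and 56.1 on the IKK2 and 36.1, 37.3 and 33.5 on the Cre arrays, in multiples of the 75th percentile.

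**Figure D2:**
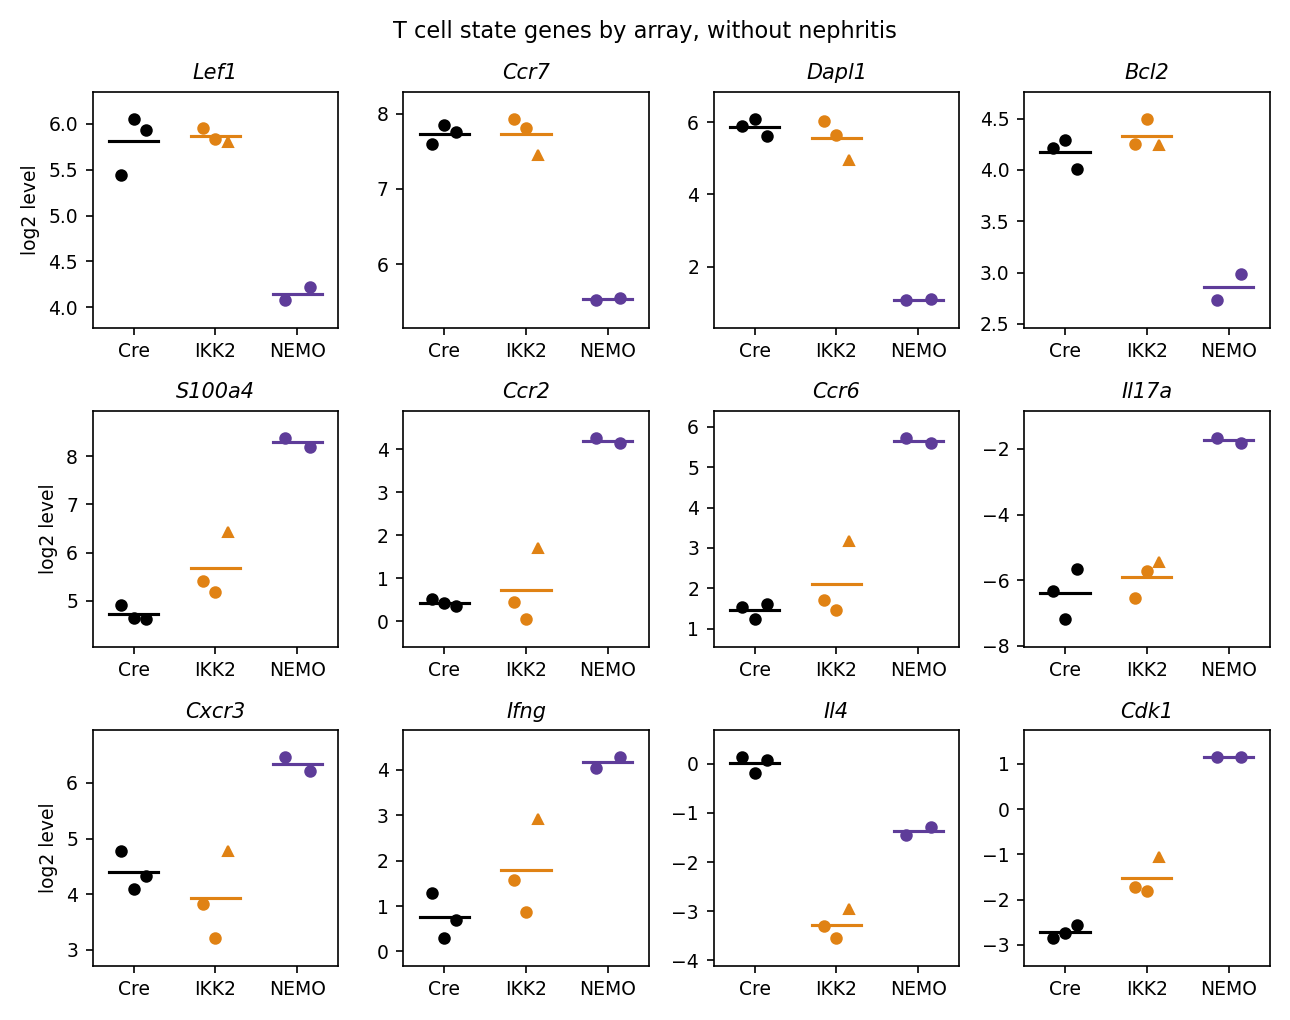
Log2 level (array intensity relative to the 75th percentile) of 12 genes of T cell state on each untreated array, with 1 point per array, a line at the group mean and IKK2 replicate 3 as a triangle. Both NEMO arrays lie below all other arrays for Lef1, Ccr7, Dapl1 and Bcl2 and above them for S100a4, Ccr2, Ccr6, Il17a, Cxcr3, Ifng and Cdk1, while Il4 lies highest on the Cre arrays.

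**Figure D3:**
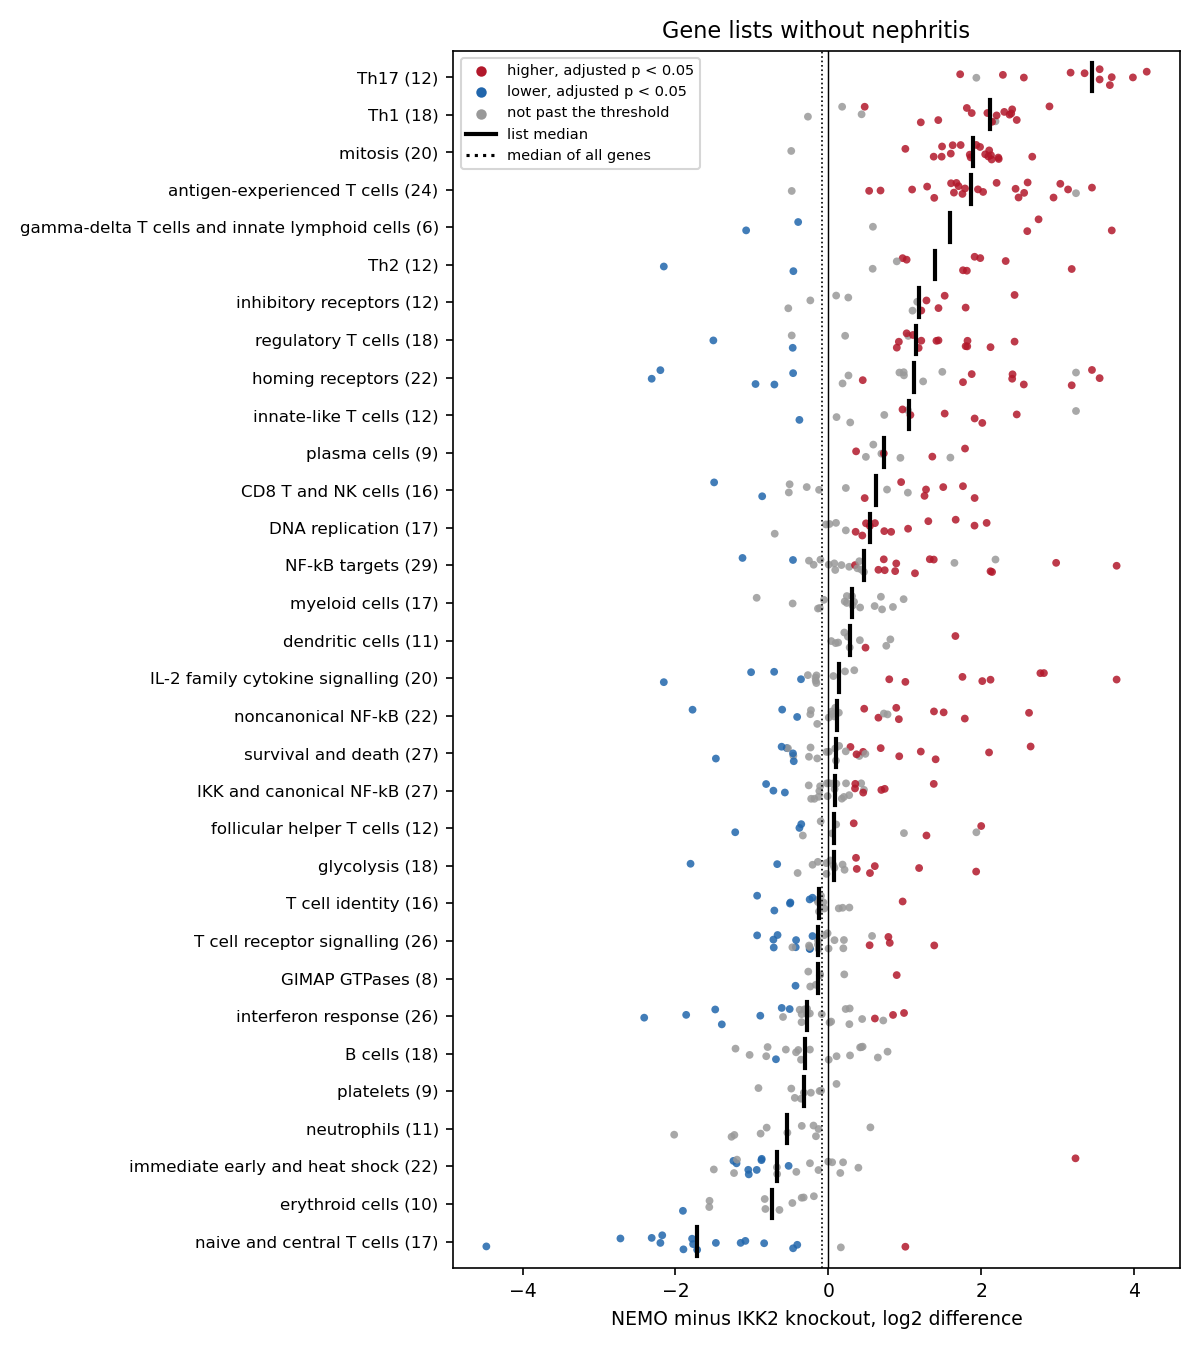
NEMO minus IKK2 log2 difference of each measured member of the 32 gene lists, ordered by list median, with the number of members in brackets. Th17 genes have the highest median (3.45) and naive and central T cell genes the lowest (-1.72), and the dotted line is the median of all genes (-0.084).

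Mitotic genes were higher in NEMO knockout T cells. Of 20 members 19 were higher and Cenpf did not pass, where 15.4% of all genes were higher, and the list median was 1.90. The list mean relative to Cre arrays was 2.94 and 2.92 on the NEMO arrays and 0.98, 1.11 and 1.43 on IKK2 replicates 1 to 3. The IKK2 arrays thus lay between the Cre and the NEMO arrays. Cdk1, the kinase that drives entry into mitosis, read 1.15 and 1.14 in NEMO, -1.71, -1.81 and -1.05 in IKK2 and -2.71 ± 0.15 (SD, n = 3) in Cre arrays, a difference of 2.67 (SE 0.29, adjusted p = 3.86e-05). Another 2 probes of the gene gave differences of 2.84 and 0.78. The cyclin genes Ccnb1 and Ccna2 were higher by 2.22 (SE 0.24, adjusted p = 3.94e-05) and 2.13 (SE 0.30, adjusted p = 0.000243). Mki67, the usual marker of cycling cells, read 5.05 and 5.12 against 2.66, 2.90 and 3.54 and was higher by 2.05 (SE 0.35, adjusted p = 0.00077). Aurkb was not well above background on any IKK2 array and was at least 1.75-fold higher (SE 0.24, adjusted p = 3.82e-05), but did not pass with normexp background correction (adjusted p = 0.691). Of 17 DNA replication genes 12 were higher, none was lower and 5 did not pass, with a smaller list median of 0.54. The thymidine kinase gene Tk1 was higher by 2.07 (SE 0.29, adjusted p = 0.000223) and Rrm2, which makes deoxynucleotides, by 1.91 (SE 0.29, adjusted p = 0.000421). TTTGAA stood in the windows of 12 of 16 mitotic genes (75%) and 2 of 15 replication genes (13.3%), against 18.1% of all windows. CCAAT stood in 15 of 16 (93.8%) and 9 of 15 (60.0%), against 37.9%. The Cdk1 window printed above held 2 and 3 matches.

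Within the IL-2 cytokine family, the ligand genes Il2 and Il7 and 4 receptor genes (Il2ra, Il2rb, Il7r and Il9r) were higher, as were Cish and Socs2. Il4ra, Il21r, Jak1 and Socs3 were lower. Of 20 members 8 were higher, 4 lower and 8 did not pass (list median 0.14), where 15.4% of all genes were higher and 19.9% lower. Beside Il2, Il2ra and Il2rb, the IL-9 receptor gene Il9r read -0.74 and -0.45 against -3.26, -3.98 and -3.0 and was higher by 2.82 (SE 0.39, adjusted p = 0.000211). Socs2, a feedback inhibitor induced by STAT5, read 0.82 and 0.81 against -1.91, -2.73 and -1.24 and was higher by 2.78 (SE 0.36, adjusted p = 0.000135). The groups did not overlap for either gene. The chain that IL-2 and IL-7 share, Il2rg, and the transcription factor genes Stat5a and Stat5b did not pass.

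Of 27 survival and death genes 9 were higher, 5 lower and 13 did not pass (list median 0.10), where 15.4% of all genes were higher and 19.9% lower. Bcl2, the survival factor of naive T cells, read 2.73 and 2.98 in NEMO, 4.25, 4.49 and 4.24 in IKK2 and 4.17 ± 0.14 (SD, n = 3) in Cre arrays. Mcl1, a second survival factor, was lower (difference -0.54, SE 0.10, adjusted p = 0.00168), but did not pass with normexp background correction or in a fit of only the 5 arrays (adjusted p = 0.0544 and 0.0615). The BH3-only death gene Bik read 0.91 and 0.91 against -1.83, -2.44 and -0.94 and was higher by 2.65 (SE 0.35, adjusted p = 0.000157). Pmaip1, which encodes the death factor Noxa, was higher by 2.1 (SE 0.40, adjusted p = 0.00171), but did not pass against IKK2 replicate 3 alone (adjusted p = 0.0677). Bcl2l2, a relative of Bcl2 that favours survival, was higher by 1.40 (SE 0.31, adjusted p = 0.00407), but did not pass against IKK2 replicate 3 alone (adjusted p = 0.062).

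Among 16 T cell identity genes 1 (Gata3) was higher, 6 were lower and 9 did not pass, where 35.3% of all genes were called and 19.9% were lower. The list had a median of -0.13 that turned to 0.041 under quantile normalization and, by construction near 0, to 0.0046 when arrays were centred on these genes. Their summed level was 1882 and 1815 on the NEMO and 2056, 1936 and 1879 on the IKK2 arrays, in multiples of the 75th percentile. Cd247, the zeta chain of the receptor complex, read 2.18 and 2.20 against 3.16, 2.80 and 2.73 and was lower (difference -0.71, SE 0.13, adjusted p = 0.0012). Bcl11b, a factor that keeps T cell identity, was lower (difference -0.50, SE 0.095, adjusted p = 0.00158), but did not pass in a fit of only the 5 arrays (adjusted p = 0.0522). Of 26 receptor signalling genes 4 were higher, 9 lower and 13 did not pass (list median -0.13). Both medians lie close to the -0.084 of all genes. The transcription factor gene Nfatc2 was higher by 0.80 (SE 0.14, adjusted p = 0.000921), with 0.17 on a second probe, and the phosphatase gene Ptpn22 by 0.79 (SE 0.11, adjusted p = 0.000186).

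Homing receptor genes moved in both directions. Of 22 members 9 were higher, 5 lower and 8 did not pass (list median 1.12), where 15.4% of all genes were higher and 19.9% lower. The lower members included Ccr7, which guides entry into lymph nodes, with Cxcr4, S1pr1 and Cd69. The higher members included the receptors for entry into tissue Ccr6, Ccr2, Ccr4 and Cxcr3 described above. Ccr10, a skin homing receptor, read 0.84 and 1.87 against -0.86, -2.07 and -0.68 and was higher by 2.56 (SE 0.57, adjusted p = 0.00448), but did not pass against IKK2 replicate 3 alone or without NEMO replicate 2 (adjusted p = 0.0832 and 0.0598). Cx3cr1, the fractalkine receptor, was higher by 2.41 (SE 0.63, adjusted p = 0.0112), but did not pass against IKK2 replicate 3 alone, without NEMO replicate 1 or without NEMO replicate 2 (adjusted p = 0.22, 0.0695 and 0.0541).

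Of 26 interferon response genes 7 were lower, 3 higher and 16 did not pass (list median -0.28). The 38.5% called is near the 35.3% of all genes, so the list as a whole did not stand out. The higher members were Oas3, Ifih1 and Gbp3. Gbp3, an interferon-induced GTPase gene, was higher by 0.99 (SE 0.24, adjusted p = 0.00794), but did not pass against IKK2 replicate 3 alone, in a fit of only the 5 arrays or without NEMO replicate 1 (adjusted p = 0.126, 0.0894 and 0.0553). Ifit2, an antiviral gene, read -0.49 and -0.34 in NEMO, 1.54, 1.39 and 1.41 in IKK2 and 1.81 ± 0.15 (SD, n = 3) in Cre arrays, and was lower (difference -1.86, SE 0.15, adjusted p = 7.2e-06). Ifit3 was lower (difference -2.41, SE 0.47, adjusted p = 0.00198) and Oasl1 (difference -1.39, SE 0.25, adjusted p = 0.00118). For Ifit2 both NEMO arrays lay below all arrays of the other groups. Immediate early and heat shock genes had 8 lower, 1 higher and 13 not past the threshold of 22 (list median -0.67). Nr4a1, induced within minutes of antigen receptor signals, read 3.85 and 4.18 against 5.27, 5.23 and 5.15, with 4.13 ± 0.12 (SD, n = 3) on Cre arrays, and was lower (difference -1.20, SE 0.12, adjusted p = 1.86e-05). Ier3, also a known NF-kB target, was the higher member, at -0.21 and -0.53 against -4.45, -4.18 and -2.18 (difference 3.24, SE 0.54, adjusted p = 0.000744), with its probe well above background on 1 of 3 IKK2 arrays. Hsph1, a chaperone gene, was lower (difference -1.05, SE 0.23, adjusted p = 0.00414), but did not pass in a fit of only the 5 arrays (adjusted p = 0.0675). Without NEMO replicate 1 it did not pass either, and the difference was -0.65. Its mean was 3.08 on the NEMO, 4.13 on the IKK2 and 2.51 on the Cre arrays, so the IKK2 arrays stood further from the Cre level.

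Glycolysis genes showed 6 higher, 2 lower and 10 not past the threshold of 18 (list median 0.074), where 15.4% of all genes were higher and 19.9% lower. Hk2, the inducible hexokinase of activated cells, read -0.69 and -0.58 against -3.06, -2.48 and -2.17, with -4.01 ± 0.49 (SD, n = 3) on Cre arrays, and was higher by 1.93 (SE 0.32, adjusted p = 0.000686). The lactate exporter gene Slc16a3 was higher by 1.19 (SE 0.14, adjusted p = 8.05e-05). Pdk1, the kinase that holds pyruvate back from mitochondria, was lower (difference -1.80, SE 0.15, adjusted p = 7.2e-06), at 1.69 and 1.74 against 3.67, 3.47 and 3.42. Of 8 GIMAP GTPase genes, which support lymphocyte survival, 1 was higher, 1 was lower and 6 did not pass (list median -0.14), a smaller share called than the 35.3% of all genes. Gimap3 was lower (difference -0.43, SE 0.11, adjusted p = 0.0102) and Gimap7 higher by 0.90 (SE 0.32, adjusted p = 0.0451). Gimap3 did not pass without NEMO replicate 1 (adjusted p = 0.108), nor under 4 other settings (adjusted p between 0.0546 and 0.493). Gimap7 did not pass without NEMO replicate 1, without NEMO replicate 2, without IKK2 replicate 1 or without IKK2 replicate 2 (adjusted p = 0.122, 0.188, 0.107 and 0.143), nor under 7 other settings (adjusted p between 0.0507 and 0.642).

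Among genes well above background on all 5 arrays, the 12 largest increases and 12 largest decreases included genes outside the lists. The increases held Il2, Il1r1, Il17re, Ccr6, Ccr2 and Cd163l1 from the lists above. Ltb4r1, the receptor for the attractant leukotriene B4, read 3.64 and 3.49 against -0.20, -1.10 and 1.38 and was higher by 3.54 (SE 0.57, adjusted p = 0.000576). Plcd1, a phospholipase C gene, was higher by 3.61 (SE 0.43, adjusted p = 7.49e-05), and the carboxypeptidase gene Cpd by 3.53 (SE 0.40, adjusted p = 5.41e-05). The uncharacterised gene 1700012B07Rik was higher by 4.11 (SE 0.65, adjusted p = 0.000489). The decreases were led by Dapl1, Myo6 and Grm6. Myo6, a myosin motor, read -5.08 and -4.24 against -0.078, -0.18 and -0.95 and was lower (difference -4.26, SE 0.35, adjusted p = 7.09e-06). Grm6, a glutamate receptor gene, was lower (difference -3.90, SE 0.21, adjusted p = 9.38e-07), Drc1 (difference -3.29, SE 0.40, adjusted p = 7.59e-05) and the alcohol dehydrogenase gene Adh1 (difference -3.19, SE 0.25, adjusted p = 5.6e-06). Cxcr1, a receptor for chemokines of the IL-8 kind, read -4.24 and -4.46 against -1.14, -1.12 and -1.52 and was lower (difference -3.09, SE 0.20, adjusted p = 2.9e-06). Abcb11, a bile salt transporter gene, was lower (difference -2.72, SE 0.10, adjusted p = 1.27e-07). Another member of the increases, 4933402N22Rik, was higher by 3.72 (SE 0.84, adjusted p = 0.0048), but did not pass against IKK2 replicate 3 alone (adjusted p = 0.165), where its difference was 1.94. Further decreases were Igfbp4, Klk1b22, Pgpep1l, Sorcs2 and Syt10. For Klk1b22, Drc1 and Syt10 the IKK2 arrays stood further from the Cre arrays than the NEMO arrays did. Their IKK2 means were 2.54, 4.39 and -1.47. The Cre means were -1.76, 1.92 and -3.59, and the NEMO means -0.78, 1.10 and -4.09. The NEMO and IKK2 arrays did not overlap for any of these 24 genes, nor for 5157 of the 5173 called genes and 58.9% of all genes.

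Markers of other spleen cells were measurable in all 3 groups, and outside the plasma cell list few of them passed between the knockouts. Over all genes 35.3% were called, 15.4% higher and 19.9% lower. Of 18 B cell genes none was higher in NEMO, 1 (Cd72, a B cell coreceptor) was lower and 17 did not pass (list median -0.30). The Cd72 difference of -0.68 (SE 0.18, adjusted p = 0.0126) did not pass against IKK2 replicate 3 alone, without NEMO replicate 1 or without NEMO replicate 2 (adjusted p = 0.206, 0.0694 and 0.0659). Their summed level was 45 and 38.7 on the NEMO, 44.3, 39.9 and 41 on the IKK2 and 14.7, 18 and 15.9 on the Cre arrays, in multiples of the 75th percentile. Well above background on all arrays of the group were 17 of the 18 genes in NEMO, 15 in IKK2 and 14 in Cre arrays. None of 17 myeloid, 11 neutrophil or 9 platelet genes passed in either direction in the limma model, and their medians were 0.31, -0.54 and -0.32. At an unadjusted p under 0.05 the counts were 0, 1 and 0. The summed myeloid level was 82.7 and 82.9 on the NEMO and 57.8, 65.6 and 81 on the IKK2 arrays, with 91, 72.2 and 77.6 on Cre arrays. Such a sum is led by its brightest genes. By the mean log2 level of the list, the NEMO arrays lay 2.86 and 2.56 above the Cre mean. The IKK2 arrays lay 2.30, 2.77 and 2.32 above it, and 8 of the 17 genes were well above background on all Cre arrays. Of 11 dendritic cell genes 2 were higher, Zbtb46 by 1.66 (SE 0.28, adjusted p = 0.000743) and Cst3 by 0.49 (SE 0.094, adjusted p = 0.00181), and of 10 erythroid genes 1 was lower (Gata1, -1.90, SE 0.21, adjusted p = 4.64e-05). The summed erythroid level was 41.4 and 46.5 on the NEMO and 116, 72 and 33.9 on the IKK2 arrays, and the list's median difference of -0.73 turned to 0.058 against IKK2 replicate 3 alone. All 9 plasma cell genes had a difference above 0 (list median 0.73). For 8 of them the NEMO arrays lay above all IKK2 arrays, where 58.9% of all genes did not overlap in either direction. Of the 9 genes 4 (Prdm1, Irf4, Xbp1 and Eaf2) were called higher (44.4%) and 5 did not pass. The Cre means of these 4 genes were 0.54, -0.31, 4.02 and 4.56, so Eaf2 was the highest of these in the control T cells. Irf4 did not pass against IKK2 replicate 3 alone, without NEMO replicate 1 or without NEMO replicate 2 (adjusted p = 0.238, 0.0862 and 0.0615). Xbp1 did not pass without IKK2 replicate 1, 2 or 3 (adjusted p = 0.0903, 0.079 and 0.0516). Nor did it pass under some settings that kept all 5 arrays (adjusted p between 0.0535 and 0.0859). It also did not pass in the fits that left 1 array in a group. Its difference there was 0.31 without NEMO replicate 1, 0.41 without NEMO replicate 2 and 0.32 against IKK2 replicate 3 alone. The summed level of the list was 127 and 113 on the NEMO and 54.6, 66.1 and 66.4 on the IKK2 arrays. Eaf2, the brightest member on the NEMO arrays, read 6.19 and 5.99 there and 4.56, 4.85 and 4.77 on the IKK2 arrays. With the B cell list mean as a covariate 5020 genes were called, 4808 of them shared in the same direction. The part of the other cell types in single results was not tested.

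**Figure D4:**
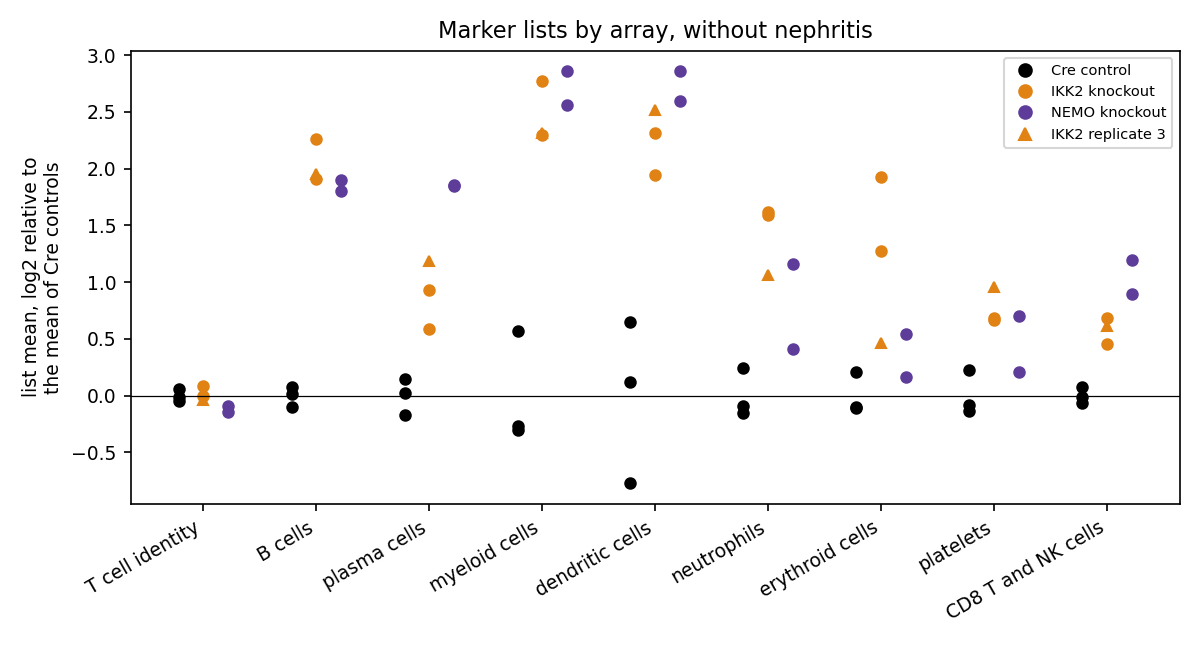
Mean log2 level of marker lists on each untreated array, relative to the mean of the Cre controls, with 1 point per array and IKK2 replicate 3 as a triangle. B cell, myeloid and dendritic cell lists lie above the Cre controls on all 5 knockout arrays, the B cell list at 1.80 and 1.90 on the NEMO and 2.26, 1.91 and 1.95 on the IKK2 arrays.

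The same contrast under nephritis used 5 other arrays, again with the NEMO arrays on slide 3, but with all IKK2 arrays on slide 1. There 6767 genes (46.1%) were called, 2783 higher (19%) and 3984 lower (27.1%). Of the 5173 genes called without nephritis, 5046 had the same sign and 4244 were called in the same direction, which is 82.0% of the calls without and 62.7% of the calls with nephritis. Both lists of calls share the variance estimate and the slide of the NEMO arrays. Of 141 genes named by rule, 126 were called in the same direction. In that setting 15 of the 17 genes listed for naive and central T cells were lower, and 22 of 24 antigen-experienced, 16 of 18 Th1, all 12 Th17 and 19 of 20 mitotic genes were higher. Ccr7 differed by -2.20 without and -3.35 with nephritis, Ccr6 by 3.55 and 3.37, and Il2 by 3.77 and 4.09. Among NF-kB pathway genes, Nfkbia was higher by 0.74 without and 0.37 with nephritis (adjusted p = 0.00314). Tnfaip3 differed by 1.38 without and 0.27 with nephritis, where it did not pass (adjusted p = 0.243). The change of the difference between conditions did not pass for Nfkbia (adjusted p = 0.239) or Tnfaip3 (adjusted p = 0.118). Relb and Nfkb2 were higher by 0.89 and 1.23 with nephritis. Over all genes the change of the difference was called for 37 (limma, 1579 at an unadjusted p under 0.05).

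**Figure D5:**
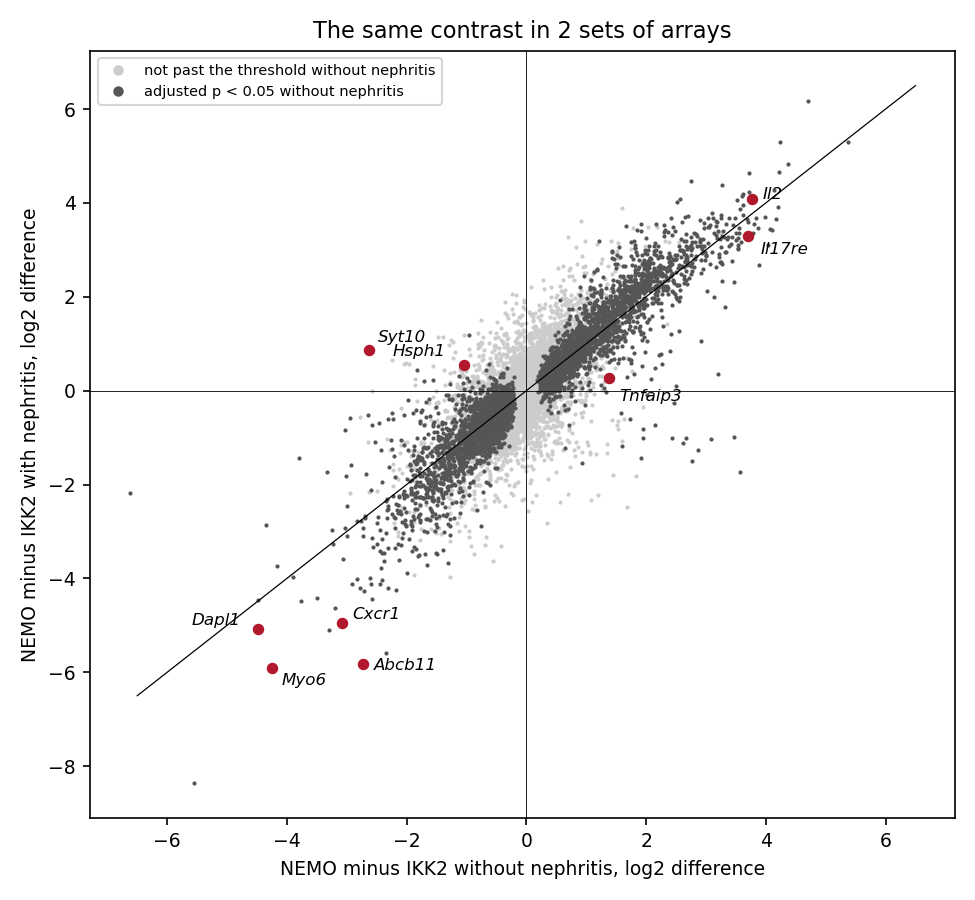
NEMO minus IKK2 log2 difference of each of 14675 genes without nephritis (horizontal) and with nephritis (vertical), dark where called without nephritis, with a line where both are equal. Dapl1, Il2 and Il17re lie near the line, Myo6, Cxcr1 and Abcb11 below it, and Tnfaip3, Hsph1 and Syt10 nearer to 0 or past it under nephritis.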

How the data were processed

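RNA of sorted spleen CD4+ T cells was hybridised to 1-colour Agilent arrays, 1 sample each. The authors deposited scanner files with probe intensity values that Agilent Feature Extraction had background-subtracted and summarised, per the file headers, and a matrix of log2 values of unstated scaling. The submitters' processing notes give version 10.5 of that software and the file headers a later one. Here each array's log2 intensity was scaled by its 75th percentile over non-control probes. A gene was represented by its brightest probe over the 16 arrays, out of those that were well above background on 2 or more. Of 55681 probes 27235 had 1 symbol, which left 14675 genes. limma 3.58.1 in R 4.3.3 fitted 6 group means to all 16 arrays, and adjusted p-values are Benjamini-Hochberg over all genes tested. Since no label ties the arrays of a group to different mice, a p-value reflects only how these samples spread, which may be technical. On simulated data for this comparison (14648 genes) 65 of 100 genes changed by 1 log2 unit and 86 of 100 changed by 2 were recovered, with 10 false calls. The simulation had independent noise on each array, no slide effect and few changed genes. Its false calls therefore do not carry over to these arrays.

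The members and gene lists were chosen with earlier results of these data known, so no list is independent evidence. Named by rule were 12 IKK and NF-kB genes, per list up to 5 called members of largest difference whose groups do not overlap with the strongest opposite member, and the 12 largest increases and decreases. That gave 141 genes. Another 17 with values (Tbx21, Foxp3, Gzmb, Mki67, Lef1, Bach2, Cd44, Tnf, Gadd45b, Icam1, Tnfrsf4, Mcl1, Rora, Ctla4, Ccl5, Itgb1 and Ahnak), the markers given as levels, and members named without values were chosen after their values were seen, and the last 2 kinds were not followed singly across the alternatives. Normexp (offset 50) used the median in place of the mean spot signal. Promoters were matched by symbol to RefSeq (GRCm38.p6). Results for some genes are not reported here by name, although list counts hold them.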

Additional observations from a re-analysis of the deposited data

Results flagged for a closer look

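The NEMO minus IKK2 difference changed with nephritis for 3 genes described above, by the limma test of the change itself. Abcb11 differed by -2.72 without and -5.82 with nephritis, a change of -3.10 (SE 0.15, adjusted p = 1.57e-06). Cxcr1 differed by -3.09 and -4.96, a change of -1.87 (SE 0.29, adjusted p = 0.0306). Bach2 differed by -1.77 and -2.79, a change of -1.02 (SE 0.17, adjusted p = 0.0425). All 3 genes were lower in NEMO knockout T cells in both conditions and further apart under nephritis. On the NEMO arrays Abcb11 had a mean of -5.10 without and -7.67 with nephritis, and Cxcr1 of -4.35 and -5.56. For scale, Il17a had a mean of -5.91 on the untreated IKK2 arrays, where its probe was not well above background. The sizes of the Abcb11 and Cxcr1 changes thus rest on NEMO signals near or below background, and no bound was computed. The IKK2 arrays lay on slides 1 and 2 without nephritis and on slide 1 with it, so that slide moves with the condition in these tests.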

How the results depend on the processing

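The count of 5173 called genes ranged from 3177 to 5540 when 1 of the 5 arrays was left out. It was 3007 in a fit of only the 5 arrays, which has fewer residual degrees of freedom, and 2845 against IKK2 replicate 3 alone, where the IKK2 arm rests on 1 array assumed to vary like the other groups. It lay between 4127 (slide as a random block) and 5684 (arrays centred on the median of all genes) under the other settings. That centring and the centring on T cell identity genes were chosen after seeing the data. With the replicate number as a block, 5160 genes and 133 of 141 genes named by rule were called, and same-numbered arrays did not deviate together (correlations -0.030 and -0.017), so the number was not taken as a pairing. Of 158 genes refitted under every setting, 141 of them named by rule, all kept their sign except Ikbkb, which ranged from -0.22 to 0.017 when 1 array was left out (0.0042 without NEMO replicate 1, 0.017 without IKK2 replicate 1) and was 0.026 under centring on T cell identity genes, and 103 passed under every setting. List medians turned sign for erythroid cells (0.058 against IKK2 replicate 3 alone), platelets (0.076 with the B cell covariate) and T cell identity (0.041 under quantile normalization, 0.0046 under its own centring). The median moved by more than the spread between replicates for 14 of 32 lists with normexp, 13 against IKK2 replicate 3 alone, 12 under centring on T cell identity genes, 10 in the authors' deposited log2 matrix and 2 to 6 when 1 array was left out. The Th17 median was 2.61 with normexp and 2.38 against IKK2 replicate 3 alone. The cause was not tested. Genes shared with the contrast under nephritis numbered 4244, and 3324, 4260 and 4390 with slide as a block, with the replicate block and under quantile normalization. The number of arrays limits the precision, and 300 genes were well above background on NEMO arrays only.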

Other observations

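Of the genes tested, 300 were well above background on NEMO arrays alone among the 5 arrays and 18 on IKK2 arrays alone. The negative controls read higher on slide 1, which holds 2 of the 3 IKK2 arrays, than on slide 3 with the NEMO arrays, and their part in these counts was not tested.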
